A study of Homo sapiens with 4 samples.

Results

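The 39 genes described here encode inflammatory cytokines, chemokines, their receptors, and the NF-kB transcription factors with their inhibitors and targets. They were chosen by symbol from the 61471 gene names of the deposited tables, and all 39 were found there. By role they were 11 cytokines, 9 chemokines, 6 receptors, 4 NF-kB subunits, 3 NF-kB inhibitors and 6 NF-kB targets. Of these, 29 had enough counts to be tested and 10 did not: IL1A, IL1B, TNF, CXCL3, CXCL5, CXCL16, CX3CL1, CCL2, CCL20 and ACKR3.

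All libraries came from MDA-MB-231, a cell line from a human triple-negative breast tumour, with wild-type genotype as labelled, grown in DMEM with fetal bovine serum and antibiotics. The cells of every library had been transfected with H2B-EGFP, a green fluorescent fusion to histone H2B, and with CMV-RFP, a red fluorescent protein under a viral promoter. The compared groups were EGFP negative cells, labelled as having increased extravasation (2 libraries), and EGFP positive cells, labelled as not having it (2 libraries). The labels state neither the ploidy of either group nor whether the cells came from a single clone, so EGFP status, extravasation and ploidy cannot be told apart. Nor do they say whether the libraries of a group were grown separately. The spread behind each p-value is that of these 4 libraries and could be purely technical.

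Counts summed to 12635576 and 11620076 in the EGFP negative libraries and to 11620005 and 11445076 in the EGFP positive libraries. Levels are in CPM, the count scaled to a common library total by TMM, and 3 counts corresponded to 0.241 to 0.26 CPM. Intervals and floors below account for counting error alone. H2BC11, a gene for histone H2B used as a check of the labels, had 88 and 64 counts in EGFP negative libraries and 7733 and 7352 in EGFP positive libraries, in the direction of the labels. All 8 markers of MDA-MB-231 were detected, with summed levels of 10490 to 11110 CPM in EGFP negative and 9508 to 9566 CPM in EGFP positive libraries. Of these 8, 2 were higher in EGFP negative cells, 2 were lower and 4 did not pass. VIM, the largest part of the sum, was higher at 5813 CPM in EGFP negative and 4199 CPM in EGFP positive cells, and CAV1 was higher too. CD44 was lower at 641 and 865 CPM, and EGFR at 479 and 601 CPM. Of 14 leukocyte markers, CD3E, MS4A1, TYROBP, AIF1 and CD163 were at 0 in all 4 libraries and PTPRC had at most 6 counts. The summed leukocyte list was nevertheless at 9.56 and 11.7 CPM in EGFP negative and 4.93 and 3.38 CPM in EGFP positive libraries. CSF1R gave 6.51 and 6.34 CPM of it in EGFP negative and 1.99 and 0.694 CPM in EGFP positive libraries. LYZ had 10 and 15 counts in EGFP negative and 2 and 3 in EGFP positive libraries, and CD14 10 and 9 against 6 and 2. PTPRC, CD79A and ITGAM had higher mean levels in EGFP positive cells. HLA-DRA, the only other leukocyte marker tested, did not pass (edgeR adjusted p = 0.79). Fibroblast markers summed to 18.8 to 28.8 CPM in EGFP negative and 23.4 to 27.5 CPM in EGFP positive libraries, with DCN at 0, and endothelial markers to 12 to 14.1 and 14.2 to 14.6 CPM, with CDH5 at 0. Within these sums PECAM1, an endothelial marker, was higher, with 39 and 43 counts in EGFP negative libraries and 9 in each EGFP positive library (log2 fold change 2.11 ± 0.38, SE; edgeR adjusted p = 0.0015). KDR, the other endothelial marker tested, was at 9.29 CPM in EGFP negative and 13.2 CPM in EGFP positive cells and did not pass (adjusted p = 0.067). PDGFRB, a fibroblast marker, was higher at 5.16 CPM in EGFP negative and 2.51 CPM in EGFP positive cells (adjusted p = 0.033), and CSF1R was higher too (adjusted p = 5.8e-04). COL1A1, the other fibroblast marker tested, was at 18.15 CPM in EGFP negative and 22.4 CPM in EGFP positive cells and did not pass (adjusted p = 0.30). The part of other cell types in the results was not tested.

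NF-kB factors are dimers held in the cytoplasm by inhibitor proteins of the I-kappa-B family. Signals from receptors such as those for TNF and interleukin 1 lead to destruction of the inhibitor, after which the dimer enters the nucleus and turns on cytokine, chemokine and survival genes. Among its targets are its own inhibitors, which close a feedback loop. In breast cancer cells this pathway is known for driving interleukin 6, interleukin 8 and related secreted factors. In bulk RNA, fewer cells that express a gene and less of its RNA per cell cannot be told apart.

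The comparison asked which of these genes differed between EGFP negative and EGFP positive cells. Of the 29 tested members, CSF3 was higher in EGFP negative cells, and IL11, IL18, IL24, CXCL8, CXCR4, IL7R and BIRC3 were lower. That is 1 higher and 7 lower, or 27.6% of those tested, while across all 16413 tested genes 18.9% passed (9.40% higher and 9.46% lower). No test of the difference between these shares was made. Libraries of the groups did not overlap for 20 of the 29 members (69%), against 57.4% of all tested genes. The log2 fold change, EGFP negative over EGFP positive throughout, was below 0 for 23 of the 29 and above 0 for 6. Its median was -0.46 over the tested members and -0.003 over all tested genes. The members were chosen with earlier results of these data known, so these shares and medians are description only. The test was edgeR's quasi-likelihood test with adjustment over all genes. The 8 calls held in each of the fits that left out 1 library. More members passed as lower when an EGFP negative library was left out, and more of all tested genes passed too. Such a fit has 1 EGFP negative library, so its spread comes from the EGFP positive libraries alone. With an EGFP positive library left out, fewer of all tested genes passed.

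**Figure D1:**
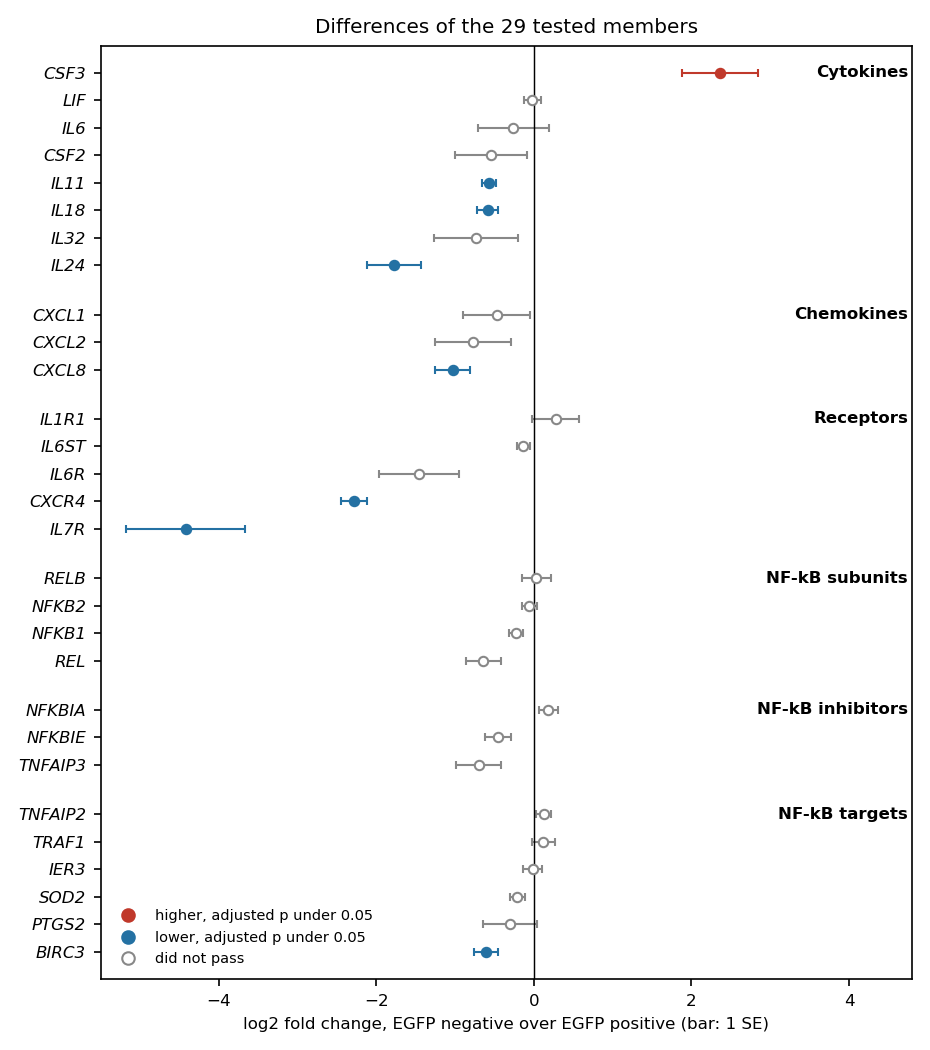
Log2 fold change of each of the 29 tested members, EGFP negative over EGFP positive, with a bar of 1 SE, grouped by role. CSF3 lies at 2.37 to the right of 0, and the 7 filled points on the left run from -4.42 for IL7R to -0.57 for IL11, while all NF-kB subunits and inhibitors have open symbols because they did not pass.

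**Figure D2:**
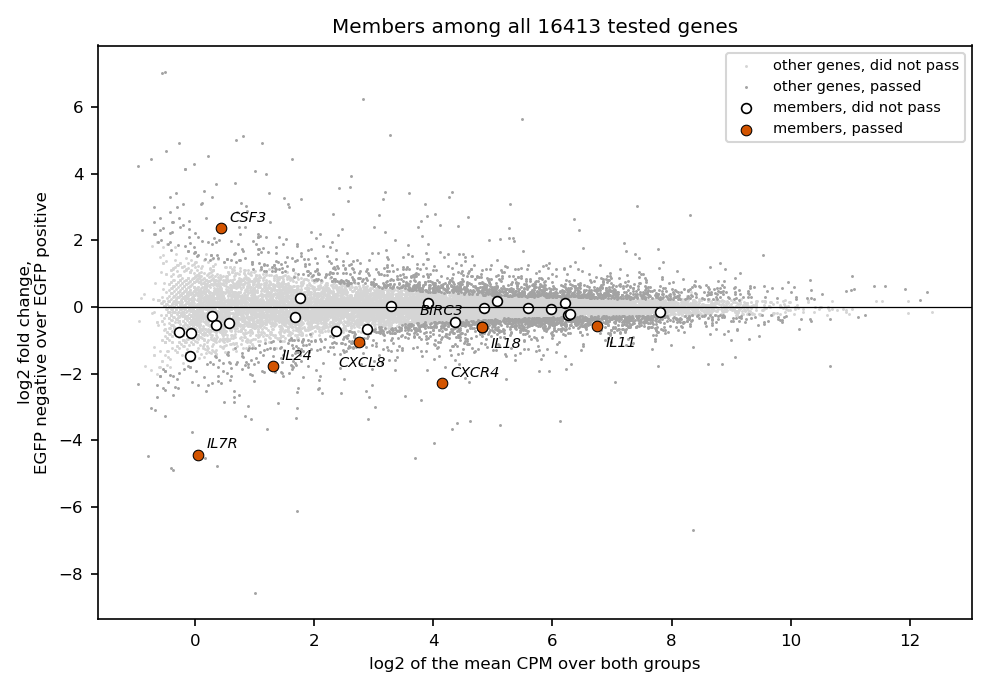
Log2 fold change against log2 mean CPM for all 16413 tested genes (grey), with the 29 tested members as larger circles. The 8 members that passed are filled and named, the 21 others are open and lie mostly between -0.8 and 0.3, and IL6R is the open circle at -1.46.

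Among cytokines, 1 was higher, 3 were lower and 4 did not pass, and 3 were below the filter. IL11, a cytokine of the interleukin 6 family known for its part in bone metastasis of this line, had 90.4 and 83.1 CPM in EGFP negative libraries and 133 and 124 CPM in EGFP positive libraries. Both EGFP negative values were under both EGFP positive ones. The log2 fold change was -0.57 ± 0.09 (SE; adjusted p = 5.7e-04). IL11 was also the most abundant member per exon length in both groups, at 36.5 and 54.1 CPM per kilobase in EGFP negative and EGFP positive cells.

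IL18, which is made as a precursor and cut by caspase 1, had 20.3 and 24.7 CPM in EGFP negative libraries and 33.8 CPM in each EGFP positive library. The groups did not overlap, with a log2 difference of -0.59 ± 0.13 (SE; adjusted p = 0.0054). IL24, a cytokine of the interleukin 10 family, had 13 and 14 counts in EGFP negative libraries and 42 and 47 in EGFP positive libraries. That gave 1.12 ± 0.11 and 3.86 ± 0.32 CPM (SD, n = 2 each) and a log2 difference of -1.77 ± 0.35 (SE; adjusted p = 0.0024). The value of IL24 is uncertain, since 41.6% of its exon bases lie opposite exons of FCMR and counting ignored strand. FCMR, an immunoglobulin M receptor gene looked at after its values were seen, had 23 and 22 counts in EGFP negative and 65 and 44 in EGFP positive libraries. Its log2 fold change was -1.33 ± 0.32 (SE; adjusted p = 0.0092, 0.17 without EGFP positive library 1, and 0.067 by DESeq2). Reads of IL24 and FCMR cannot be told apart where they overlap.

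CSF3, the granulocyte colony-stimulating factor, was the only member that was higher. It had 32 and 23 counts in EGFP negative libraries and 4 and 6 in EGFP positive libraries. The mean levels were 2.27 ± 0.42 CPM in EGFP negative and 0.433 ± 0.124 CPM in EGFP positive cells (SD, n = 2 each), a log2 difference of 2.37 ± 0.48 (SE; adjusted p = 0.0034). The ratio of the summed counts per depth was 5.26, with an exact 95% counting interval of 2.66 to 11.6. CSF2, its neighbour in function as the granulocyte-macrophage factor, had 13 and 12 counts in EGFP negative and 12 and 23 in EGFP positive libraries and did not pass (adjusted p = 0.47).

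LIF, another interleukin 6 family cytokine, was the second most abundant of the 11 cytokines in CPM. It had 51.7 and 43.9 CPM in EGFP negative and 47.4 and 49.7 CPM in EGFP positive libraries. Its groups overlapped (log2 fold change -0.02 ± 0.11, SE; adjusted p = 0.93). IL6 was low, with 16 and 11 counts in EGFP negative and 12 and 19 in EGFP positive libraries (adjusted p = 0.75). Of its exon bases, 22.8% lie opposite IL6-AS1, so its counts are uncertain. IL32 had 10 and 5 counts in EGFP negative and 13 and 11 in EGFP positive libraries (adjusted p = 0.39). The sign of the fold change of IL6 turned without EGFP positive library 2 (0.11), and that of LIF turned without EGFP negative library 2 (0.10) or EGFP positive library 2 (0.01).

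The interleukin 1 genes and TNF, the classic triggers of NF-kB, were close to absent. IL1A had 2 and 3 counts in EGFP negative and 4 and 3 in EGFP positive libraries. IL1B had 5 in each EGFP negative library and 2 in each EGFP positive library. TNF had 0 and 1 counts in EGFP negative libraries and 0 in each EGFP positive library. Differences in these genes were not detectable at this depth.

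IL11 held most of the summed counts of the 11 cytokines in every library, with no scaling for gene length. Its share of the summed counts of the 11 cytokines was 53.2% (95% Wilson interval 51.1 to 55.4) and 52.6% (50.3 to 54.9) in EGFP negative libraries. In EGFP positive libraries it was 59.9% (58 to 61.8) and 57.1% (55.2 to 59.1). LIF made up 30.5% and 27.8% in EGFP negative and 21.4% and 22.9% in EGFP positive libraries. Its own level was 47.8 CPM in EGFP negative and 48.5 CPM in EGFP positive cells and did not pass. The 11 cytokines summed to 170 and 158 CPM in EGFP negative and 222 and 217 CPM in EGFP positive libraries.

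**Figure D3:**
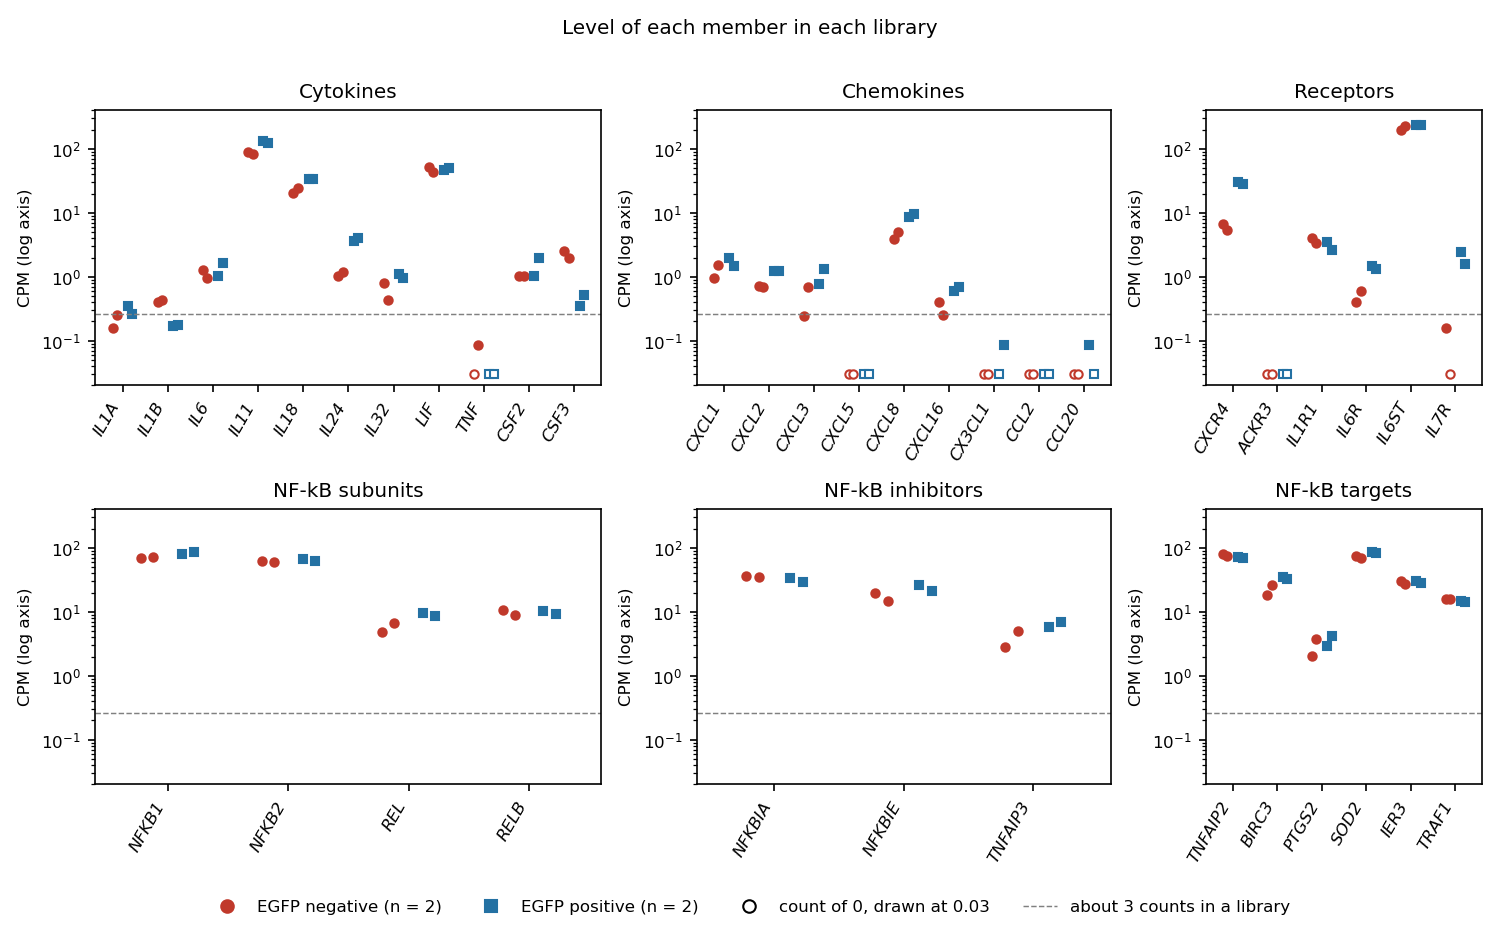
Level in CPM on a log axis of each of the 39 members in every library, EGFP negative (circles) left of EGFP positive (squares), in 6 panels by role. The dashed line marks about 3 counts, and open symbols at the bottom are counts of 0. CXCR4, IL7R, IL24 and CXCL8 show EGFP negative points clearly under the EGFP positive ones, CSF3 shows them above, and most NF-kB genes lie side by side.

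Chemokine transcripts were scarce in both groups, and CXCL8 was the only chemokine that passed. CXCL8, which encodes the neutrophil attractant interleukin 8 (chromosome 4, 73740541 to 73743716), had 48 and 59 counts in EGFP negative libraries and 101 and 109 in EGFP positive libraries. In CPM these were 3.86 and 5.06 in EGFP negative and 8.74 and 9.46 in EGFP positive libraries. The groups did not overlap, and the log2 fold change was -1.03 ± 0.22 (SE; adjusted p = 0.0048). CXCL8 held 62.3% and 61.5% of the summed counts of the 9 chemokines in EGFP negative and 65.2% and 66.5% in EGFP positive libraries. The sum of all 9 was 6.19 and 8.23 CPM in EGFP negative and 13.4 and 14.2 CPM in EGFP positive libraries.

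CXCL1 and CXCL2, ligands of the same receptor CXCR2, were below 2 CPM in all libraries. CXCL1 had 12 and 18 counts in EGFP negative and 23 and 17 in EGFP positive libraries, with overlapping groups (adjusted p = 0.50). CXCL2 had 9 and 8 counts in EGFP negative and 14 in each EGFP positive library, without overlap (log2 fold change -0.77 ± 0.48, SE; adjusted p = 0.30). CXCL3, below the filter, had 3 and 8 counts in EGFP negative and 9 and 15 in EGFP positive libraries. These 3 are close copies: 5.73% of the stretches of 50 bases in the CXCL1 transcript, 9.24% in CXCL2 and 5.26% in CXCL3 recur in each other's transcripts, so their values are uncertain.

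CXCL16, a membrane-bound chemokine, had 5 and 3 counts in EGFP negative and 7 and 8 in EGFP positive libraries. CX3CL1, the other membrane-bound chemokine, and CCL20, the ligand of CCR6, had no count in EGFP negative libraries and 1 count in the EGFP positive libraries together. CXCL5 and CCL2, attractants of neutrophils and monocytes, had 0 counts in all 4 libraries, which allows up to 0.26 CPM in a library.

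CXCL8, CXCL1, CXCL5, CXCL3 and CXCL2 lie in this order on chromosome 4, with 37911 to 125676 bases from each to the next. Their promoters are shown because all 5 hold GGAATTTCC close to the start. CXCL8 passed, CXCL1 and CXCL2 did not, CXCL3 and CXCL5 were not tested, and no test compared the genes with each other. The sequences are RefSeq's on GRCh38.p14, 140 bases ending at the base before the start, written 5′ to 3′ on the gene's strand. Capitals mark the NF-kB consensus or GGAATTTCC, and in CXCL8 also the AP-1 motif TGANTCA.
CXCL1 (chr4:73869253-73869392, plus strand): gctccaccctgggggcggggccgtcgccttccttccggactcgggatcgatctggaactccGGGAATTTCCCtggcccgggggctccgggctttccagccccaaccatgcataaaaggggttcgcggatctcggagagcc
CXCL2 (chr4:74099196-74099335, minus strand): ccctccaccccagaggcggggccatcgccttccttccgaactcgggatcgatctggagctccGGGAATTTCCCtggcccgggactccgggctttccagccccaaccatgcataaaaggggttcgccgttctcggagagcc
CXCL3 (chr4:74038690-74038829, minus strand): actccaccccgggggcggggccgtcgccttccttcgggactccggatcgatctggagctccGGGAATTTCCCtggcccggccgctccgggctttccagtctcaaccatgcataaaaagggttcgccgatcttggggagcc
CXCL5 (chr4:73998678-73998817, minus strand): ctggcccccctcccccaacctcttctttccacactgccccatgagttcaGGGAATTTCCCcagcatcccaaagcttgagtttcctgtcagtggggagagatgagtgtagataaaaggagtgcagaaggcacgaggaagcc
CXCL8 (chr4:73740429-73740568, plus strand): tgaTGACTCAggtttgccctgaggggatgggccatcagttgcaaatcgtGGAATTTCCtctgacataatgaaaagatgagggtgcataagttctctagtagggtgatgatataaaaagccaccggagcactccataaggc

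In CXCL1, CXCL2, CXCL3 and CXCL5 the motif began 79, 78, 79 and 91 bases before the start, and in CXCL8 GGAATTTCC began 91 bases before it. CXCL8 alone among these 5 had a match to TGANTCA, 137 bases before the start. Both strands were searched over 250 bases before each start, and GGAATTTCC lies inside the NF-kB consensus where both were found. GGAATTTCC was in 8 of the 29 members with a RefSeq promoter and in 0.502% of all 27305 genes with one, and the NF-kB consensus was in 13 of the 29 and in 6.28% of all. TGANTCA was in CXCL8, IL11 and IL1A among the 29, and in 8.06% of all genes. Of the 6 lower members with a promoter, BIRC3 matched the consensus and CXCL8 matched GGAATTTCC. Of the 17 members with a promoter that did not pass, 9 matched the consensus. The members include genes listed as NF-kB subunits, inhibitors and targets, so these shares are no result about the members. A match describes the letters in this window only. No RefSeq promoter was used for LIF, NFKBIE, CCL2, ACKR3, CXCL16, CX3CL1, IL18, RELB, IER3 and CSF3.

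Among the 5 tested receptors, CXCR4 and IL7R were lower and 3 did not pass. CXCR4, the receptor for CXCL12 that guides tumour cells to bone and lung in many models (chromosome 2, 136114349 to 136119177), had 83 and 63 counts in EGFP negative libraries and 355 and 326 in EGFP positive libraries. In CPM these were 6.67 and 5.4 in EGFP negative and 30.7 and 28.3 in EGFP positive libraries, without overlap and 4.87-fold apart in the fit. The log2 fold change was -2.29 ± 0.16 (SE; adjusted p = 3.2e-07), the smallest adjusted p of the 29. CXCR4 thereby went to the 16th place of the tested members per exon length in EGFP negative cells, against the 10th in EGFP positive cells.

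IL7R, the alpha chain of the receptors for interleukin 7 and TSLP, had 2 and 0 counts in EGFP negative libraries and 28 and 18 in EGFP positive libraries. The ratio, here EGFP positive over EGFP negative, was 24 per depth with an exact 95% counting interval of 6.29 to 204. The fitted log2 fold change was -4.42 ± 0.76 (SE; adjusted p = 9.3e-04) and depends on the fit's handling of the near-zero group. It was -7.54 without EGFP negative library 1, which leaves a group at 0, and -3.54 without EGFP negative library 2. Even in EGFP positive cells the level was only 1.99 ± 0.61 CPM (SD, n = 2).

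IL6R, the binding chain for interleukin 6, had 5 and 7 counts in EGFP negative and 17 and 15 in EGFP positive libraries. The groups did not overlap, but the gene did not pass (log2 fold change -1.46 ± 0.51, SE; adjusted p = 0.061). IL6R passed as lower with the replicate number as a block in the edgeR model. Of the fits that left out 1 library, it passed only without EGFP negative library 2. Over the alternative fits its log2 fold change ran from -1.75 to -1.20. IL6ST, the signalling chain gp130 shared by the interleukin 6 family, was the most abundant member in CPM, at 200 and 227 CPM in EGFP negative and 235 and 233 CPM in EGFP positive libraries. It did not pass (log2 fold change -0.13 ± 0.09, SE; adjusted p = 0.32) except without EGFP negative library 2. Its log2 fold change ran from -0.22 to -0.05 over the alternative fits. Of the stretches of 50 bases in its transcripts, 10.3% recur in other genes, IL6STP1 among them. IL1R1, the signalling receptor for interleukin 1, had 50 and 40 counts in EGFP negative and 41 and 30 in EGFP positive libraries, with overlapping groups (adjusted p = 0.59). ACKR3, the scavenging receptor for CXCL12, had 0 counts in all 4 libraries.

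Of the 4 NF-kB subunits, 0 were higher and 0 lower by edgeR, with an unadjusted p under 0.05 for NFKB1 and REL. DESeq2 and limma-voom also called none. NFKB1 and REL passed as lower with the replicate number added to the edgeR model as a block. REL also passed as lower with a stricter filter on low counts. NFKB1, which encodes p105 and its product p50, had 69.2 and 72.8 CPM in EGFP negative and 81.3 and 84.9 CPM in EGFP positive libraries. The libraries did not overlap, and the log2 fold change was -0.23 ± 0.09 (SE; adjusted p = 0.11). It ran from -0.26 to -0.19 over the alternative fits. With 1 library left out, NFKB1 passed only without EGFP negative library 2. NFKB2, which encodes p100 of the alternative pathway, had 62.4 and 60.8 CPM in EGFP negative and 67.1 and 61.3 CPM in EGFP positive libraries (adjusted p = 0.74). RELB, the partner of p52, had 10.7 and 9.08 CPM in EGFP negative and 10.3 and 9.11 CPM in EGFP positive libraries (adjusted p = 0.94). Both pairs lay close together, and their fold changes turned sign with single libraries left out: NFKB2 without EGFP positive library 1 (0.01), and RELB without EGFP negative library 1 (-0.10) or EGFP positive library 2 (-0.06).

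REL, encoding c-Rel, had 61 and 78 counts in EGFP negative and 109 and 99 in EGFP positive libraries, without overlap. Its log2 fold change was -0.64 ± 0.22 (SE; adjusted p = 0.053) and ran from -0.87 to -0.43 over the alternative fits. With 1 library left out, REL passed only without EGFP negative library 2. Of its exon bases 50.5% are shared with another annotated gene on the same strand that had 0 counts, so the counts may miss reads that fell in both. RELA, the most used partner of p50 and not a member, had 113 CPM in EGFP negative and 114 CPM in EGFP positive cells (adjusted p = 0.91).

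Of the 3 inhibitors none passed by edgeR, with unadjusted p under 0.05 for NFKBIE and TNFAIP3. DESeq2 and limma-voom also called none of them. NFKBIE and TNFAIP3 passed as lower with the replicate number as a block in the edgeR model. NFKBIA, which encodes the main inhibitor I-kappa-B-alpha and is itself a fast target of NF-kB, had 36.9 and 34.7 CPM in EGFP negative and 33.9 and 29.1 CPM in EGFP positive libraries. The libraries of EGFP negative cells lay above the others by a small margin (log2 fold change 0.18 ± 0.12, SE; adjusted p = 0.32). NFKBIE, encoding I-kappa-B-epsilon, had 19.8 and 14.7 CPM in EGFP negative and 26.1 and 21.4 CPM in EGFP positive libraries (adjusted p = 0.067). With 1 library left out, NFKBIE passed only without EGFP negative library 1. Its log2 fold change ran from -0.69 to -0.25 over the alternative fits. TNFAIP3, encoding the ubiquitin-editing enzyme A20, had 35 and 59 counts in EGFP negative and 67 and 80 in EGFP positive libraries (adjusted p = 0.10). With 1 library left out, TNFAIP3 passed only without EGFP negative library 2. Its log2 fold change ran from -1.17 to -0.34 over the alternative fits. The EGFP negative libraries of NFKBIE and TNFAIP3 differed from each other more than those of the EGFP positive group relative to their level.

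Of the 6 NF-kB targets, BIRC3 was lower and the other 5 did not pass. BIRC3, which encodes the ubiquitin ligase cIAP2 (chromosome 11, 102317484 to 102339403), had 18.2 and 26.5 CPM in EGFP negative and 34.9 and 33.1 CPM in EGFP positive libraries. The groups did not overlap, with a log2 difference of -0.61 ± 0.15 (SE; adjusted p = 0.013). That difference was -0.36 without EGFP negative library 1 and -0.89 without EGFP negative library 2, and passed in both. Its neighbour BIRC2, 7810 bases away and encoding cIAP1, was also lower, at 165 CPM in EGFP negative and 213 CPM in EGFP positive cells (log2 fold change -0.37 ± 0.09, SE; adjusted p = 0.012, and 0.24 without EGFP positive library 2). The promoters of BIRC3, which passed, and NFKBIA, which did not, are given as a pair of NF-kB targets that hold the consensus, and no test compared their fold changes. Capitals mark the NF-kB consensus.
BIRC3 (chr11:102317274-102317483, plus strand): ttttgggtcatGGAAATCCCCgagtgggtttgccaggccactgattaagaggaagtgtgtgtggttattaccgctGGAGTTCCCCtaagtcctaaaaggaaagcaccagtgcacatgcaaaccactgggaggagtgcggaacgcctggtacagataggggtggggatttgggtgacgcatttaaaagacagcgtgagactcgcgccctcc
NFKBIA (chr14:35404750-35404889, minus strand): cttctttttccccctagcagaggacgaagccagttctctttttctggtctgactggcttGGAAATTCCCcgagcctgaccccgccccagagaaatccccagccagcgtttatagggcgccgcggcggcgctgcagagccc

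In BIRC3 the matches began 199 and 135 bases before the start, and in NFKBIA the match began 81 bases before it. These windows are from RefSeq on GRCh38.p14, like those of the chemokines.

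The other targets did not pass in the main edgeR fit. SOD2, the mitochondrial superoxide dismutase, had 75.3 and 70.1 CPM in EGFP negative and 85 and 83.2 CPM in EGFP positive libraries (log2 fold change -0.21 ± 0.09, SE; adjusted p = 0.14). Of all the alternative fits, it passed only without EGFP negative library 1. Its log2 fold change ran from -0.27 to -0.15 over these fits. TNFAIP2, a TNF-induced gene, had 80.3 and 74.5 CPM in EGFP negative and 72.9 and 69.3 CPM in EGFP positive libraries (adjusted p = 0.43). TRAF1, a signalling adaptor, had 15.7 and 15.9 CPM in EGFP negative and 14.9 and 14.1 CPM in EGFP positive libraries (adjusted p = 0.65). For TNFAIP2 and TRAF1 both EGFP negative libraries lay above the EGFP positive ones, with a fitted log2 fold change of 0.12 for each gene. IER3, an early response gene, had 30.5 and 27.2 CPM in EGFP negative and 30.1 and 28.2 CPM in EGFP positive libraries (adjusted p = 0.96). PTGS2, encoding cyclooxygenase 2, had 25 and 44 counts in EGFP negative and 34 and 48 in EGFP positive libraries. Its log2 fold change was -0.31 ± 0.35 (SE; adjusted p = 0.61). The groups overlapped for IER3 and PTGS2. Their fold changes turned sign with single libraries left out, PTGS2 without EGFP negative library 1 (0.08) and IER3 without EGFP negative library 2 (0.08) or EGFP positive library 1 (0.03), and with upper quartile scaling (0.0003025). The counts of IER3 are uncertain because 32.6% of its exon bases lie opposite IER3-AS1, which had at most 2 counts in a library.

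Other genes of the pathways gave the setting of these members. The shares of tested genes that passed in these lists stand beside 18.9% over all tested genes, and no test of the difference was made for any of them. In a list of 42 further cytokines and chemokines, 12 were tested, and 3 were higher and 2 lower, or 41.7%. CSF1, the macrophage colony-stimulating factor, was higher at 192 CPM in EGFP negative and 124 CPM in EGFP positive cells (log2 fold change 0.64 ± 0.09, SE; adjusted p = 1.5e-04). TNFSF9, the ligand of 4-1BB, and CLCF1, an interleukin 6 family cytokine, were higher too (log2 fold changes 0.90 and 0.51). TNFSF15 was lower at 3.95 CPM in EGFP negative and 12.2 CPM in EGFP positive cells (adjusted p = 2.6e-04), and so was TNFSF10, which encodes TRAIL (2.78 and 4.9 CPM; adjusted p = 0.049). TNFSF9 did not pass without EGFP positive library 1 (adjusted p = 0.071) or library 2 (0.19). CLCF1 did not pass without EGFP negative library 1 (0.13) or EGFP positive library 1 (0.061) or 2 (0.28), and TNFSF10 without the same libraries (0.082, 0.22 and 0.25). By DESeq2 none of these 3 passed (adjusted p = 0.15 for TNFSF9, 0.13 for CLCF1 and 0.30 for TNFSF10). CLCF1 did not pass without a filter on low counts (0.068). TNFSF10 lost its call in 8 of 11 alternatives, among them RLE scaling (0.0514), upper quartile scaling (0.0524), limma-voom (0.0523) and no filter (0.064).

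Among 46 further cytokine and chemokine receptors, 24 were tested, and 3 were higher and 2 lower, or 20.8%. Both TNF receptors were higher. TNFRSF1A was at 203 CPM in EGFP negative and 104 CPM in EGFP positive cells (log2 fold change 0.97 ± 0.09, SE; adjusted p = 2.7e-06), and TNFRSF1B at 35.2 and 21.4 CPM (adjusted p = 0.0011). CSF2RA, which lies on both sex chromosomes so that its reads fit 2 places, was at 15.7 CPM in EGFP negative and 6.84 CPM in EGFP positive cells (adjusted p = 2.6e-04). CD40 was lower at 26.3 CPM in EGFP negative and 36.8 CPM in EGFP positive cells (adjusted p = 0.01, but 0.17 without EGFP positive library 1 and 0.0515 by DESeq2). CCRL2 was lower at 23.3 and 30.5 CPM (adjusted p = 0.048), but not without EGFP negative library 1 (0.11) or EGFP positive library 1 (0.23) or 2 (0.28), nor by DESeq2 (0.20), without a filter (0.097) or with upper quartile scaling (0.055).

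The core of NF-kB signalling, 35 further genes of which 34 were tested, had 2 higher and 3 lower, or 14.7%. BCL3, an atypical I-kappa-B protein that binds p50 and p52 dimers, was at 14.5 CPM in EGFP negative and 6.5 CPM in EGFP positive cells (log2 fold change 1.15 ± 0.19, SE; adjusted p = 8.1e-04). NFKBIZ, another atypical member, was at 14 and 8.97 CPM (adjusted p = 0.015, but 0.14 and 0.088 without EGFP positive library 1 or 2, and 0.10 by DESeq2). The kinase gene IRAK1 was at 449 CPM in EGFP negative and 595 CPM in EGFP positive cells (adjusted p = 0.003, and 0.076 without EGFP positive library 1). CYLD, a deubiquitinase that restrains the pathway, was at 36.1 and 49.8 CPM (adjusted p = 0.0074, and 0.089 and 0.07 without EGFP positive library 1 or 2). BIRC2 is given above.

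Of 25 further NF-kB targets, 16 were tested, and 3 were higher and 3 lower, or 37.5%. ICAM1, an adhesion molecule for leukocyte integrins, was at 6.68 CPM in EGFP negative and 15.6 CPM in EGFP positive cells (log2 fold change -1.21 ± 0.19, SE; adjusted p = 4.4e-04). PTX3, a secreted pentraxin, was at 66 and 110 CPM (adjusted p = 5.8e-05). TAP1, a peptide transporter, was at 3.73 and 6.5 CPM (adjusted p = 0.035, but 0.33 and 0.072 without EGFP positive library 1 or 2, 0.22 by DESeq2 and 0.0512 without a filter). PLAU, encoding urokinase, was higher at 661 CPM in EGFP negative and 466 CPM in EGFP positive cells (adjusted p = 2.5e-04). CFLAR and TNFAIP8 were higher with log2 fold changes of 0.40 and 0.42. CFLAR did not pass without EGFP positive library 1 (adjusted p = 0.10) or 2 (0.39), nor TNFAIP8 without EGFP positive library 1 (0.42). Neither passed by DESeq2 (0.13 for CFLAR and 0.11 for TNFAIP8) or without a filter (0.067 and 0.068). Exons of ICAM1, PLAU and TAP1 overlap genes on the other strand over 29.3%, 28.7% and 19.1% of their bases, so these values are uncertain.

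All 14 genes of JAK and STAT3 signalling, which act below gp130, were tested, and 2 were higher and 2 lower, or 28.6%. SOCS3, a feedback inhibitor induced by STAT3, was at 54.6 CPM in EGFP negative and 37.7 CPM in EGFP positive cells (adjusted p = 0.0033, and 0.066 without EGFP positive library 2). PIAS3 was at 54.6 and 37 CPM (adjusted p = 0.0017, and 0.052 without EGFP positive library 2), and 14.9% of its exon bases lie opposite NUDT17. SOCS2 was lower at 33.8 CPM in EGFP negative and 59.4 CPM in EGFP positive cells (log2 fold change -0.81 ± 0.11, SE; adjusted p = 1.4e-04). JAK1 was lower at 115 and 143 CPM (adjusted p = 0.02, and 0.35 and 0.13 without EGFP positive library 1 or 2).

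Ligands and receptors of the members were set side by side after their values were seen. CXCL12, the ligand of CXCR4, had 0 counts in all 4 libraries. CXCR1, a receptor for interleukin 8, had 0 counts in all 4 libraries, and CXCR2 had 1 count, in an EGFP negative library. CSF3R, the receptor for the product of CSF3, had 0 counts in all 4 libraries. IL11RA, the binding chain for interleukin 11, had 50 and 46 counts in EGFP negative and 24 and 45 in EGFP positive libraries (adjusted p = 0.43). LIFR, the receptor chain for LIF, was at 53 CPM in EGFP negative and 46.5 CPM in EGFP positive cells (adjusted p = 0.24). Thus transcripts of gp130, LIFR and IL11RA were present together with those of LIF and IL11, while those of the receptors for CSF3 and CXCL8 were not detected or near the floor.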

How the data were processed

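The deposited tables hold raw counts of fragments for each gene name, made by featureCounts 2.0.1 over exons with the GENCODE 46 basic annotation and no strand option, per the file headers. Libraries were polyA-selected and stranded, per the labels' protocols. The submitters' processing notes list Subread, GRCh37 and hg19, and the aligner is not given in the sources used here. Coordinates in the tables are GRCh38: 35 of the 39 members lay within 5000 bases of their GENCODE 29 place at both ends.

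Genes were kept by filterByExpr (minimum count 10, minimum total 15), scaled by TMM (factors 0.988 to 1.01) and tested with edgeR 4.0.16 in R 4.3.3 with group alone in the model for the 4 libraries. Adjustment was Benjamini-Hochberg over 16413 genes at 0.05, two-sided. The standard error is the log2 fold change over the square root of F. With 2 against 2 libraries an exact permutation test cannot go below 0.33, so none is given. Chi-square per degree of freedom between replicates was 6.23 (EGFP negative) and 2.07 (EGFP positive), so replicates differed by more than sampling noise.

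The members and lists were chosen with earlier results of these data known. All members are named, and from each other list up to 5 genes that passed in each direction. The scripts were tested on simulated data. Figures were drawn with matplotlib 3.10.9.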

Additional observations from a re-analysis of the deposited data

How the results depend on the processing

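The alternatives were RLE or upper quartile scaling, no filter or a stricter one (100 counts in all, with 2 libraries reaching 1 CPM), limma-voom 3.58.1, DESeq2 1.42.0, the replicate number as a block, and each library left out. The 8 members called kept direction and call in all 86 comparisons in which they were tested. The stricter filter removed CSF3, so 0 members were higher there, and also IL7R. Members lower were 12 with the replicate block; the same-numbered libraries correlate at 0.138 in their deviations, and the labels give no shared culture, so no pairing is assumed. Leaving out single libraries gave 7 to 12 members lower and 1 member higher. The extra members were IL6R (adjusted p = 0.0397), NFKB1 (0.0326), REL (0.0106), NFKBIE (0.00326) and TNFAIP3 (0.0197) with the block. Over all genes, counts were 965 higher and 926 lower by DESeq2, 2297 and 2407 with the block, and from 720 to 2477 higher and 715 to 2465 lower with single libraries left out. REL also passed with the stricter filter (adjusted p = 0.0499). Fold changes of members that did not pass turned sign in 10 comparisons. With single libraries left out, the log2 fold change ran from -0.557 to 0.105 for IL6, -0.148 to 0.101 for LIF, -0.124 to 0.00738 for NFKB2, -0.0981 to 0.148 for RELB (also -0.0573), -0.811 to 0.0825 for PTGS2 and -0.105 to 0.0753 for IER3, and was 0.000303 for IER3 with upper quartile scaling. H2BC11, counted in with FCMR and the called genes of the other lists, kept its call in all 11 of its comparisons. In this set, an alternative one added after seeing the data, calls were lost in 48 of 297 comparisons and none reversed. The cause was not tested. Depth limits the 10 untested members, all at or under 1.3 CPM in every library.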
